A study of Mus musculus with 12 samples.

Results

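miR-101a and miR-101b are 2 of the 706 miRNAs that had at least 1 count in small RNA libraries of mouse hippocampus. Their members were the tags (distinct insert sequences with a read count) that matched either hairpin exactly over the whole tag, which gave 70 different tags. Counts were kept by member, arm of the hairpin, start position, length and library. The hippocampi came from C57BL/6NCrl mice, males of 6 to 8 weeks by the study's methods. There were 12 libraries, a pair for untreated mice (NT) and a pair for each of 5 times after the shock (0.5 h, 1 h, 3 h, 6 h or 24 h). Electroconvulsive shock (ECS) is a brief current that makes neurons across the brain fire together. The labels give no genotype beyond this strain for any group. The suffix -1 marks the first complete time course and -2 the second, with 6 libraries each by the labels. For the untreated pair the study's read counts go against the labels. They give NT-1 the larger number of known miRNA reads, while here NT-2 had more (4284186 against 1069753). At each of the 5 times after the shock the order is the same in both. Which source is right cannot be told here, so results by time course hold for the libraries as labelled. Whole hippocampus is a mixture of cells, so fewer cells of a type and less miRNA per cell cannot be told apart.

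A miRNA is cut from a hairpin, first by Drosha in the nucleus and then by Dicer in the cytoplasm, and 1 arm is loaded into an Argonaute protein. Pairing between a target mRNA and the seed, bases 2 to 8 of the loaded strand, guides repression, so the position at which the strand starts sets its seed. miR-101 is an old vertebrate miRNA known for repressing Ezh2, the methyltransferase of Polycomb repressive complex 2, and in hippocampal neurons it is known to act on transcripts that set excitability. Mice carry it in several genes, of which Mir101a and Mir101b are the subject here.

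The reference entries of RefSeq (GRCm38.p6) for both 3′ arms start at different bases, and they are shown with the seed in capitals because the difference in start is what the tags turn on.
mmu-miR-101a-3p: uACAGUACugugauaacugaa
mmu-miR-101b-3p: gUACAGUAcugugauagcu
The matching stretch of both hairpins is shown in capitals, from the base at which the mmu-miR-101b-3p entry starts to the most common 3′ end of miR-101a in these libraries.
Mir101a hairpin: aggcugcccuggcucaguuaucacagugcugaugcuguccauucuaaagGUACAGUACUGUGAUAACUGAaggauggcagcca
Mir101b hairpin: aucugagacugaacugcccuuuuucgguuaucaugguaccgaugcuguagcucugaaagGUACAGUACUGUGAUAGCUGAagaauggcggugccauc
The tags of both members used both starts. The start at G is called the upstream start here, the start at the T that follows it the downstream start, and positions are counted from that T as position 1. The 4 tags below are the most abundant with each start of each member, again with the seed in capitals, and hold T as sequenced.
miR-101a upstream: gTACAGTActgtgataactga
miR-101a downstream: tACAGTACtgtgataactga
miR-101b upstream: gTACAGTActgtgatagctga
miR-101b downstream: tACAGTACtgtgatagctga
The upstream tags thus carried the seed TACAGTA and the downstream tags ACAGTAC, in both members. Over the 22 bases from the upstream start the hairpins differed at 1 base only, A16G from miR-101a to miR-101b, which lies outside either seed.

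Mir101a lies on the minus strand at chr4:101346945-101347027 (GRCm38.p6), inside exon 2 of the lincRNA gene E130102H24Rik on the same strand (GENCODE M21). Mir101b lies on the plus strand at chr19:29135279-29135375, inside intron 8 of Rcl1, a gene for an RNA processing factor of the ribosome, also on the same strand.

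Nearly all counts came from the 3′ arms. miR-101a had 1182976 counts on its 3′ arm and 16 on its 5′ arm, which is 0.00135% (95% Wilson interval 0.000833 to 0.0022). miR-101b had 394836 counts on its 3′ arm and 2 on its 5′ arm, both in NT-1, or 0.000507% (0.000139 to 0.00185). The PCR products carried no molecular identifiers, so these intervals cover counting error only.

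The members can be told apart because each tag reaches position 16. An A of miR-101a read as G there would count as miR-101b, and the C and T counts below do not measure its rate. Tags with C or T at that position, which neither hairpin holds, summed to 11015 counts, or 0.698% of the counts of both members and 2.79% of those of miR-101b. Relative to miR-101b they were lowest in 0.5h-2 (0.797%) and highest in 6h-1 (9.54%), with a mean of 4.66% over the first time course and 1.65% over the second. Another gene, Mir101c, has C in place of the T at position 1. Its tags had 13769 counts, equal to 1.16% of miR-101a. At position 1 of upstream-start tags, C, the base of miR-101c, had 14012 counts (2.06% of the miR-101a upstream counts), G had 19421 (2.86%) and A 4920 (0.724%). Among downstream-start tags each of these bases was rarer, with 891 counts for C (0.177% of the miR-101a downstream counts), 1131 for G (0.225%) and 1560 for A (0.311%). Tags shared by miR-101a and miR-101c were split equally and made up 0.0796% of miR-101a.

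The libraries differed in depth and in content. Tags that matched a miRNA hairpin made up 10.1% (6h-1) to 32.7% (24h-1) of deposited counts in the first time course. In the second they made up 50.9% (0.5h-2) to 69.7% (6h-2). The first time course had fewer miRNA counts, with a range of 438996 to 2219310 against 1321363 to 4281485 in the second, and shorter miRNA tags, with a mean length of 19.6 to 20.6 nt against 20.9 to 21.2 nt. NT-1 was the shortest, with 51.5% of its miRNA counts on tags of 18 or 19 nt, where the other first-course libraries had 4.55% to 17.0% and the second-course libraries 0.915% to 3.79%. Markers of the labelled tissue were present: neuronal miR-124a, miR-9, miR-128, miR-132 and miR-138 summed to 6.08% to 31.2% of miRNA counts, oligodendrocyte miR-219a and miR-338 to 0.273% to 1.82%. Liver miR-122 was at most 0.0321%, while the muscle markers miR-1a, miR-133a and miR-206 summed to 0.258% to 1.69%.

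miR-101a was among the most abundant miRNAs of the hippocampus, and its share of miRNA counts did not overlap between the time courses. Its 3′ arm made up 5.57% of miRNA counts in NT-1, 9.96% in 0.5h-1, 6.81% in 1h-1, 8.46% in 3h-1, 10.6% in 6h-1 and 10.2% in 24h-1. In the second time course it made up 3.58% in NT-2, 0.539% in 0.5h-2, 2.94% in 1h-2, 2.23% in 3h-2, 2.17% in 6h-2 and 1.09% in 24h-2. Every library of the first time course was above every library of the second. Among all arms miR-101a ranked 1 in 0.5h-1 and 24h-1 and 29 in 0.5h-2.

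miR-101b was less abundant and the time courses overlapped. It made up 1.37% of miRNA counts in NT-1, 2.40% in 0.5h-1, 1.98% in 1h-1, 1.39% in 3h-1, 2.88% in 6h-1 and 2.55% in 24h-1. In the second time course it made up 1.45% in NT-2, 0.677% in 0.5h-2, 1.42% in 1h-2, 0.918% in 3h-2, 0.846% in 6h-2 and 0.672% in 24h-2. NT-2 and 1h-2 lay within the range of the first time course, and the other second-course libraries lay below it. It ranked between 8 (6h-1) and 24 (0.5h-2). The members together took between 1.22% (0.5h-2) and 13.5% (6h-1) of miRNA counts.

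**Figure D1:**
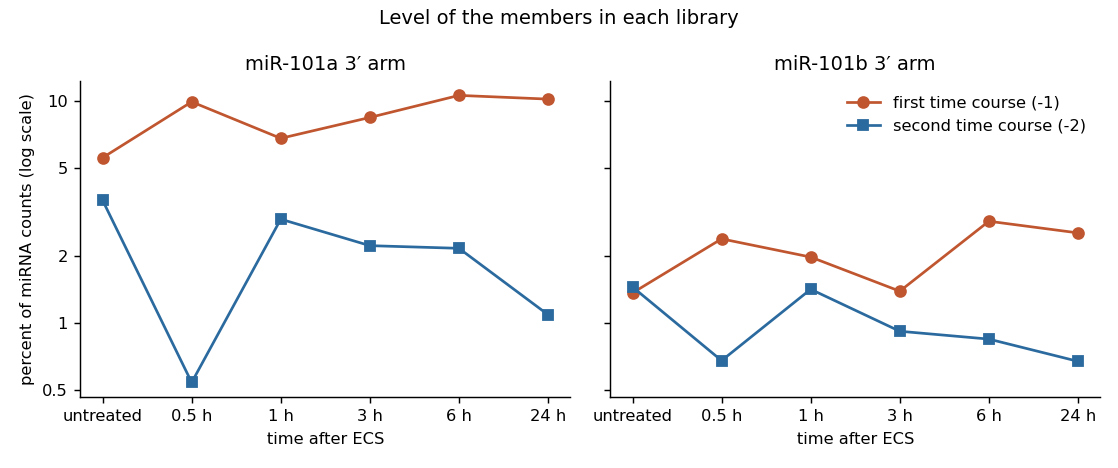
Percent of miRNA counts of the 3′ arm of miR-101a (left) and miR-101b (right) in each library on a log axis, by time after ECS, with 1 line per time course. For miR-101a the first time course (5.57% to 10.6%) lies above the second (0.539% to 3.58%) at every time point, while for miR-101b the untreated libraries are at 1.37% and 1.45%.

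Ordered by the mean of the 2 libraries, the miR-101a level was 6.41% ± 5.99 (SD, n = 2) at 6 h, followed by 24 h with 5.67% ± 6.47, 3 h with 5.35% ± 4.41, 0.5 h with 5.25% ± 6.66, 1 h with 4.88% ± 2.74 and untreated mice with 4.58% ± 1.41. The miR-101b level was 1.86% ± 1.44 at 6 h, followed by 1 h with 1.70% ± 0.399, 24 h with 1.61% ± 1.33, 0.5 h with 1.54% ± 1.22, untreated mice with 1.41% ± 0.0617 and 3 h with 1.16% ± 0.335. In both orders each pair of neighbours differed by less than the larger of their SDs.

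Neither member passed the test after ECS. edgeR's quasi-likelihood test was run on counts (TMM normalization, 464 arms tested, Benjamini-Hochberg adjustment over all arms), with no term for the time course. The log2 fold change of miR-101a over the mean of the 5 times was 0.42 (SE 0.98, adjusted p = 1.00, edgeR) and that of miR-101b 0.28 (SE 0.74, adjusted p = 1.00, edgeR). At single times miR-101a ranged from -0.20 at 1 h to 0.80 at 3 h, with an SE of at least 1.23. miR-101b ranged from 0.0025 at 1 h to 0.52 at 24 h, with an SE of at least 0.93. No arm was called at any time, so the background was 0% at each time and for the mean. By an unadjusted p under 0.05 edgeR counted 9 arms for each of the times 0.5 h, 6 h and 24 h, while 1 h had 2, 3 h had 10 and the mean had 25. DESeq2 called 1 arm at 0.5 h, 2 at 3 h, 1 for the mean and none at the other times, and no member was among them.

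The libraries after ECS stood on opposite sides of the untreated library in the 2 time courses. In the first, miR-101a as percent of miRNA counts was above NT-1 in 5 of 5 libraries, by 0.29 to 0.93 on the log2 scale, and miR-101b in 5 of 5, by 0.03 to 1.07. In the second, miR-101a was lower than NT-2 in 5 of 5 libraries, with log2 ratios of -2.73 to -0.28, and miR-101b in 5 of 5, with log2 ratios of -1.11 to -0.03. Of the 464 arms, 25 showed this pattern, or 5.39%. On counts scaled by TMM the pattern had 1 exception, miR-101a in 1h-1, at a log2 ratio of -0.0031 to NT-1. Each time course has 1 untreated library, so a single library sets the reference, and the difference between the time courses in the response to ECS was not tested. With the untreated libraries exchanged, miR-101a would keep its sides. For miR-101b, 3h-1 (1.39%) would lie below NT-2 (1.45%) and 1h-2 (1.42%) above NT-1 (1.37%).

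miR-101a was lower in the second time course than in the first. The log2 fold change was -1.59 (SE 0.55, adjusted p = 0.0411, edgeR with time point as covariate). The fit called 31.5% of arms, and 11.9% of all arms as lower, so miR-101a was 1 of 55 arms called lower and 1 of 53 (11.4%) whose percent of miRNA counts did not overlap in that direction. The median of all arms was 0.30 in this fit, and relative to it miR-101a was at -1.88. Scaled to total miRNA counts the median was -0.28, the value of miR-101a -2.23 (adjusted p = 0.00233) and its value relative to the median -1.95. The calls split into 91 higher and 55 lower with TMM and into 49 higher and 110 lower with total counts. miR-101b was not called. Its log2 fold change was -0.47 (SE 0.45, adjusted p = 0.428), or -0.77 relative to the median, and with total counts -1.09 (SE 0.43, adjusted p = 0.0545).

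The call for miR-101a was lost in 5 of the 12 fits that left out a library. The log2 fold change was -1.18 (adjusted p = 0.0973) without 0.5h-1, -1.14 (adjusted p = 0.102) without 0.5h-2, -1.32 (adjusted p = 0.123) without 24h-1, -1.57 (adjusted p = 0.0739) without 3h-2 and -1.69 (adjusted p = 0.0521) without 6h-1. Scaled by TMM, miR-101a in NT-1 (36998 counts per 1e6) and 1h-1 (36918) lay below NT-2 (39137), so on that scale the time courses overlapped. Marker lists differed between the time courses in both directions. The vessel markers miR-126a, miR-143 and miR-145a averaged 9.57% of miRNA counts in the first and 1.08% in the second. The blood markers miR-451a, miR-144, miR-486, miR-223 and miR-142 averaged 0.629% and 0.0891%, and the neuronal markers 19.9% and 10.03%. The oligodendrocyte markers were higher in the second (0.856% and 1.14%), as were the muscle markers (0.744% and 1.15%) and liver miR-122 (0.0102% and 0.0172%). The part of these lists in the result was not tested.

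The ratio of miR-101a to miR-101b does not depend on how libraries are scaled. It was 4.07 in NT-1, 4.15 in 0.5h-1, 3.43 in 1h-1, 6.08 in 3h-1, 3.70 in 6h-1 and 4.01 in 24h-1. In the second time course it was 2.46 in NT-2, 0.797 in 0.5h-2, 2.07 in 1h-2, 2.43 in 3h-2, 2.57 in 6h-2 and 1.62 in 24h-2. The highest value of the second time course lay below the lowest of the first, and in 0.5h-2 alone miR-101b was the more abundant member. No background from ratios of other arms is given here, and 31.5% of single arms were called between the time courses by edgeR. Averaged over 6 libraries, the log2 ratio was 2.06 ± 0.29 (SD) for the first time course and 0.89 ± 0.65 for the second, with the second lower at 6 of 6 time points. The exact permutation test over the 64 flips of libraries within time points gave p = 0.03125 (two-sided), the smallest p this design allows, and an adjusted p of 0.0677 over the 13 exact tests made here. After ECS the log2 ratio was 1.44 ± 0.83 (n = 10) against 1.66 ± 0.51 (n = 2) in untreated mice (exact permutation test over the 66 choices of 2 libraries, on the absolute difference, p = 0.667, adjusted p = 0.788).

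**Figure D2:**
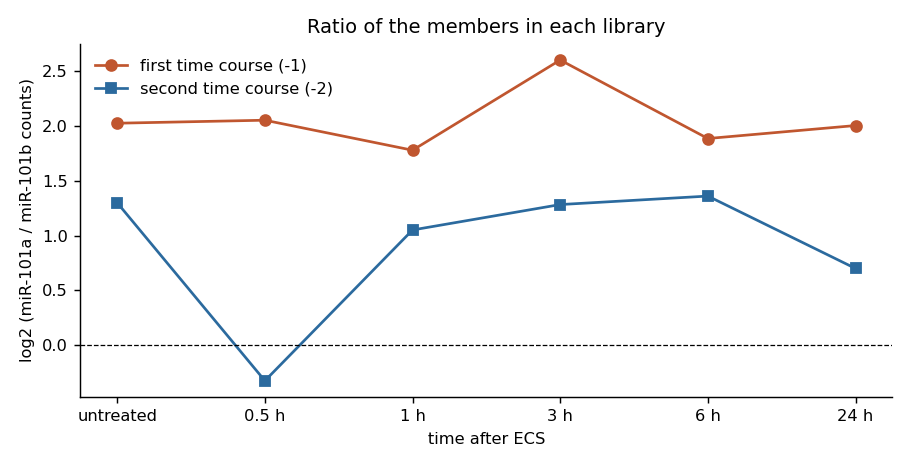
Log2 of miR-101a counts over miR-101b counts in each library, by time after ECS, with 1 line per time course and a dashed line where both members are equal. The first time course runs from 1.78 to 2.60 and the second from -0.33 to 1.36.

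The 2 starts, and with them the 2 seeds, shared the counts of both members in every library, and miR-101a used the upstream start more than miR-101b. Over all libraries the upstream start took 57.5% of miR-101a counts and the downstream start 42.4%. For miR-101b the shares were 31.0% and 66.5%, and a further 2.29% started at position 2. Each other start took under 1% of its member.

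The upstream start took 44.7% of miR-101a in NT-1, 71.7% in 0.5h-1, 21.8% in 1h-1, 28.4% in 3h-1, 27.7% in 6h-1 and 69.3% in 24h-1. In the second it took 67.3% in NT-2, 62.5% in 0.5h-2, 68.0% in 1h-2, 68.1% in 3h-2, 44.6% in 6h-2 and 68.5% in 24h-2. The libraries 0.5h-1 and 24h-1 lay with those of the second time course, and 1h-1, 3h-1 and 6h-1 lay below all others. The widest 95% Wilson interval of these shares ran from 61.8% to 63.2%, in 0.5h-2.

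In miR-101b the upstream start took 17.7% in NT-1, 48.8% in 0.5h-1, 7.92% in 1h-1, 4.33% in 3h-1, 8.75% in 6h-1 and 46.6% in 24h-1. The second time course had 36.3% in NT-2, 15.1% in 0.5h-2, 31.7% in 1h-2, 35.7% in 3h-2, 21.4% in 6h-2 and 31.4% in 24h-2. The same 3 libraries, 1h-1, 3h-1 and 6h-1, were lowest in both members and the same 2, 0.5h-1 and 24h-1, were highest in both.

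**Figure D3:**
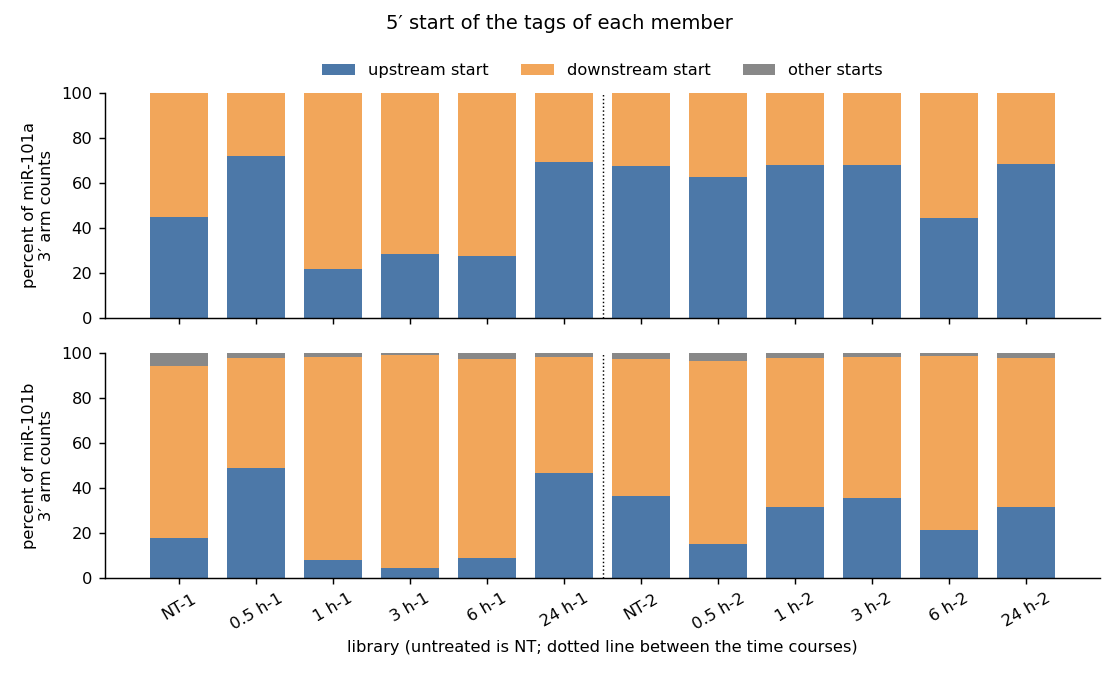
Stacked bars give the percent of 3′ arm counts of miR-101a (top) and miR-101b (bottom) by start in each of the 12 libraries, first time course on the left. In 1h-1, 3h-1 and 6h-1 the upstream start is lowest in both members (21.8% to 28.4% of miR-101a and 4.33% to 8.75% of miR-101b).

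The upstream share of miR-101a was above that of miR-101b in 12 of 12 libraries, at 53.6% ± 18.96 (SD, n = 12) against 25.5% ± 15.1. The mean difference within libraries was 28.1 percentage points (exact sign-flip permutation test over 4096 arrangements, two-sided, p = 0.000488, the smallest p it allows, adjusted p = 0.00212). With only tags that end at position 20 the difference was 14.9 points, from 0.436 in NT-1 to 24.5 in 3h-1, and still in 12 of 12 libraries (same exact permutation test, p = 0.000488). Added over both members, the seed TACAGTA had 802162 counts and ACAGTAC 764638. In this sum libraries with more counts weigh more. The share of TACAGTA in both members averaged 45.0% over the 12 libraries (median 46.9%). The share of this seed ran from 18.7% in 1h-1 to 67.3% in 0.5h-1. It was 39.4% in NT-1 and 58.3% in NT-2.

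Neither time course nor ECS passed a test on the upstream share. For miR-101a it was 44.0% ± 21.9 (SD) over the first time course and 63.2% ± 9.38 over the second, n = 6 each, higher at 4 of 6 time points (exact permutation test, p = 0.125, adjusted p = 0.232). For miR-101b it was 22.4% ± 20.1 and 28.6% ± 8.51, higher at 4 of 6 time points (exact permutation test, p = 0.5625, adjusted p = 0.731). After ECS the share of miR-101a was 53.1% ± 20.2 (n = 10) against 56.0% ± 15.96 (n = 2) in untreated mice (exact permutation test, p = 0.955, adjusted p = 0.955). That of miR-101b was 25.2% ± 16.1 against 27.0% ± 13.2 (exact permutation test, p = 0.864, adjusted p = 0.936).

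Fitted as counts per arm and start with TMM, the downstream start of miR-101a was called between the time courses. The upstream start was not, and the 2 starts were not compared with each other in this fit. The downstream start had a log2 fold change of -2.27 in the second against the first time course (SE 0.49, adjusted p = 0.00298, edgeR, 810 arm starts). This fit called 33.5% of arm starts (271 of 810, 154 of them higher, median log2 fold change 0.24). Scaled to total miRNA counts, 273 of 810 were called, 92 of them higher, at a median of -0.26. The upstream start of miR-101a had -0.99 (SE 0.65, adjusted p = 0.251), and with total counts -1.51 (adjusted p = 0.0478). The starts of miR-101b were not called, with -0.65 for the downstream (SE 0.44, adjusted p = 0.256) and 0.47 for the upstream start (SE 0.77, adjusted p = 0.664), and with total counts -1.17 (adjusted p = 0.0411) and -0.12 (adjusted p = 0.919). Over the mean of the 5 times after ECS no arm start was called (0% of 810 by edgeR, 36 at an unadjusted p under 0.05), and the log2 fold changes of the main starts were 0.10 and 0.45 for miR-101a and -0.12 and 0.27 for miR-101b, upstream and downstream in that order.

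The share of a start can move with the 3′ end, since tags under 18 nt are not in the data and an upstream tag is 1 base longer at the same end. Restricted to tags that end at position 20, the upstream share of miR-101a was 13.1% in NT-1, 76.2% in 0.5h-1, 16.2% in 1h-1, 28.1% in 3h-1, 17.4% in 6h-1 and 74.2% in 24h-1. In the second time course it was 68.7% to 74.6% in all libraries but 6h-2, which had 46.8%. For miR-101b it was 12.7% in NT-1, 58.4% in 0.5h-1, 5.11% in 1h-1, 3.54% in 3h-1, 4.80% in 6h-1 and 55.6% in 24h-1, and 53.1% to 62.4% in the second time course but for 6h-2, which had 29.1%. The 4 libraries with the lowest upstream shares in both members at this fixed end, NT-1, 1h-1, 3h-1 and 6h-1, were also those with the most counts on miRNA tags of 18 or 19 nt (13.6% to 51.5% of miRNA counts), and 6h-2 had the most of the second time course (3.79% against 0.915% to 1.70%). The part of library length in the start shares was not tested.

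**Figure D4:**
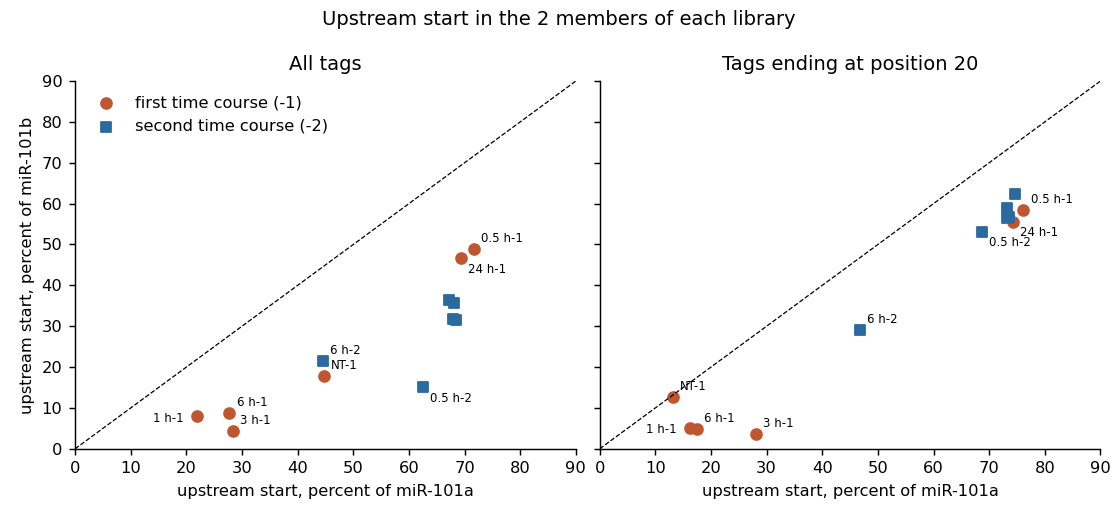
Percent of counts with the upstream start in miR-101a (x axis) and miR-101b (y axis), 1 point per library, for all tags (left) and for tags that end at position 20 (right), with a dashed line of equality. No library lies above the line, and at the fixed end NT-1, 1h-1, 3h-1 and 6h-1 lie at 13.1% to 28.1% of miR-101a apart from the rest.

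miR-101a and miR-101b were among a small set of abundant arms with a frequent second start, and the start share varied widely in all of that set. Of the 36 arms that had 1000 counts or more in each library, the share of the most used start spanned a median of 1.93 percentage points between the lowest and highest library, while the most used start held a median of 99.1% of an arm's counts. A second start held at least 10% of the counts in 7 arms, and these had the 7 widest spans. A start that holds nearly all counts leaves little room for a wide span, so this match follows in part from the choice of arms. The span was 49.9 points for miR-101a, rank 2 of the 36, and 45.9 points for miR-101b, rank 3. The other 5, named after their values were seen, were miR-140 3p (50.2 points), miR-383 5p (43.1), miR-127 5p (35.1), miR-1839 5p (34.3) and miR-411 5p (27.1).

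In counts pooled over the libraries both members most often ended at position 20, as did miR-101a in each library. miR-101b ended most often at position 19 in NT-1 (45.1% against 33.6% at position 20), at position 22 in 0.5h-2 (40.3% against 19.5%) and at position 20 in the other 10 libraries. In the second time course more tags of both members ran on to positions 21 and 22 than in the first. Of miR-101a tags with the upstream start 75.8% ended at position 20 and 13.8% at position 21, and of those with the downstream start 71.7% and 21.1%, with a further 2.92% at position 22. Of miR-101b tags the shares at positions 20 and 21 were 73.5% and 18.1% with the upstream start. With the downstream start they were 44.6% and 21.8%, with 22.4% at position 22. The 19 nt of the mmu-miR-101b-3p entry correspond to an end at position 18, where 0.482% to 3.77% of miR-101b counts ended in the libraries other than NT-1 and 14.05% in NT-1.

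Position 22 held 0.143% of miR-101a counts in NT-1, 0.501% in 0.5h-1, 0.0853% in 1h-1, 0.0301% in 3h-1, 0.00642% in 6h-1 and 0.44% in 24h-1. The second time course had 1.56% in NT-2, 6.01% in 0.5h-2, 3.72% in 1h-2, 3.78% in 3h-2, 1.35% in 6h-2 and 2.17% in 24h-2. The time courses did not overlap. For miR-101b position 22 held 0.198% to 6.54% in the first time course and 15.3% to 40.3% in the second, where 0.5h-2 was the highest, and these ranges did not overlap either. Nor did the mean length of all miRNA tags, at 19.6 to 20.6 nt in the first and 20.9 to 21.2 nt in the second. The share of other arms whose ends separated in this way is not given here.

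**Figure D5:**
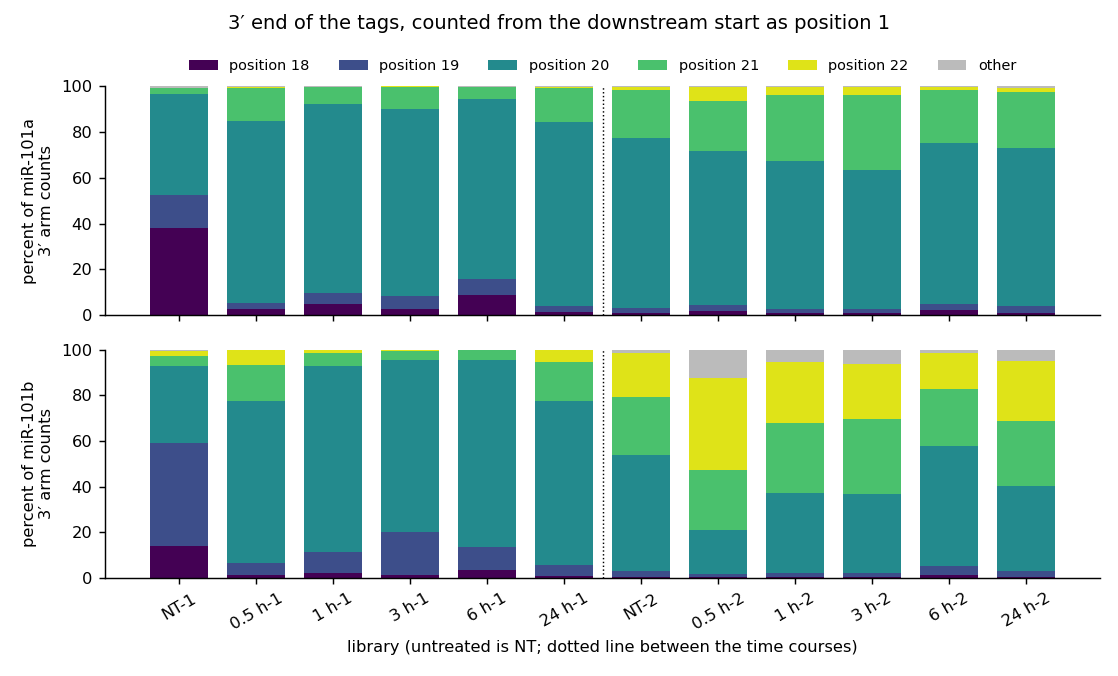
Stacked bars give the percent of 3′ arm counts of miR-101a (top) and miR-101b (bottom) by the position of the last base, counted from the downstream start as position 1, in each of the 12 libraries. NT-1 stands out by ends at positions 18 and 19 (52.4% of miR-101a and 59.2% of miR-101b), and the second time course by ends at positions 21 and 22.

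The mean length of miR-101a tags was 19.6 nt in NT-1 and 20.1 to 20.8 nt in the other libraries of the first time course, and 20.6 to 21.04 nt in the second. The mean was 20.3 ± 0.469 nt (SD) over the 6 libraries of the first time course and 20.9 ± 0.144 nt over those of the second, longer at 6 of 6 time points (exact permutation test, p = 0.03125, adjusted p = 0.0677). miR-101b averaged 20.1 ± 0.475 nt and 21.2 ± 0.278 nt, also longer at 6 of 6 time points (exact permutation test, p = 0.03125, adjusted p = 0.0677). All miRNA tags together had a mean length of 19.6 to 20.6 nt in the first and 20.9 to 21.2 nt in the second time course, a shift in the same direction. After ECS the mean lengths were 20.7 ± 0.359 nt for miR-101a and 20.7 ± 0.617 nt for miR-101b, against 20.2 ± 0.929 nt and 20.2 ± 1.07 nt in untreated mice (exact permutation test, p = 0.242 and p = 0.348, adjusted p = 0.394 and p = 0.503). Without NT-1 these differences changed sign, to -0.215 nt for miR-101a and -0.266 nt for miR-101b.

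Tags with the upstream start ended earlier than tags with the downstream start of the same member. Their mean end was position 19.8 ± 0.559 against 20.3 ± 0.258 (SD, n = 12) for miR-101a, a difference of -0.48 bases, and position 19.8 ± 0.509 against 20.6 ± 0.705 for miR-101b, a difference of -0.76 bases. Both held in 12 of 12 libraries (exact sign-flip permutation test, p = 0.000488, adjusted p = 0.00212 for each). With only tags that end at position 20 or later, the difference was -0.182 bases for miR-101a (11 of 12 libraries, exact permutation test, p = 0.00244). For miR-101b it was -0.523 bases (8 of 12 libraries, exact permutation test, p = 0.00781). At any shared end an upstream tag is 1 base longer, so this window does not make the starts equal in length. The part of tag length in the difference was not tested.

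Tags that carried 1 more base at the 3′ end that the hairpin does not hold were outside the counts above. Of miR-101a tags with such a base included, 5.55% had an added A, 3.13% an added T, 0.776% an added C and 0.123% an added G. For miR-101b the shares were 6.14%, 4.13%, 0.41% and 0.209%. An added A that equals the next base of the hairpin cannot be told apart from it. Added A on miR-101a made up 1.61% to 3.39% in the first time course and 6.26% to 17.2% in the second, with 0.5h-2 the highest and no overlap as labelled. On miR-101b it made up 1.34% to 10.5% and 5.69% to 11.4%, which overlapped. Added bases were counted for these members only, so it is not known how many other arms separated in this way.

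Apart from the members, 2 arms had a most abundant tag with the same bases 2 to 7 as either main start of miR-101a. They are shown with the seed in capitals to compare with the tags of the members.
miR-144 3p: tACAGTATagatgatgta
miR-582 5p: aTACAGTTgttcaaccagtt
miR-144, made in red blood cells, shares these bases with the downstream start, and miR-582 with the upstream start. miR-144 3p had 24 to 2041 counts per library, highest in NT-1, and miR-582 5p 4 to 54, both far fewer than either member, for which the lowest library had 11181 counts. miR-144 3p was lower in the second time course, with a log2 fold change of -3.83 (SE 0.65, adjusted p = 0.0018, edgeR), and miR-582 5p was not called (-0.82, SE 0.63, adjusted p = 0.319). After ECS neither was called (log2 fold changes of -1.93 and -0.13, adjusted p = 1.00 for both, edgeR).

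The arms most like the members across the 12 libraries were first miR-101c 3p and then the other member. Over the 212 arms with 10 counts or more in each library, Pearson's r of log2 percent of miRNA counts with miR-101a was 0.92 for miR-101c 3p, 0.92 for miR-101b 3p and 0.91 for miR-143 3p. With miR-101b it was 0.94 for miR-101c 3p, 0.92 for miR-101a 3p and 0.88 for miR-145a 3p. After the mean of each time course was subtracted, these values were 0.71, 0.77 and 0.60 for miR-101a and 0.85, 0.77 and 0.64 for miR-101b. The points share their libraries, and miR-101c tags differ from miR-101a by 1 base.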

How the data were processed

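Small RNA from hippocampus, selected by size on a gel (18 to 24 nt by the labels, up to 25 nt by the study's methods), was cloned with the Illumina DGE kit and sequenced on a Genome Analyzer IIx. The authors removed adapters with the miR-Intess pipeline (version not given in the sources used here) and deposited raw counts per distinct tag and library, not normalized and not aligned. Tags of at least 18 nt were matched here to 2202 GENCODE M21 hairpins over their whole length, and a tag of several miRNAs was split equally. Reads with an error or an added base were left out. Arms that reached 10 counts in 2 or more libraries were tested with edgeR 4.0.16 (R 4.3.3, quasi-likelihood, TMM, split counts rounded to whole numbers, SE from the F statistic), with DESeq2 1.42.0 as an alternative. The test was checked on simulated counts. Single values were tested by exact permutation (Python 3.11.15, scipy 1.17.1), with Benjamini-Hochberg adjustment over 13 tests. The threshold was an adjusted p of 0.05.

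Replicate numbers mark the 2 time courses by the study's methods, and libraries of a time course deviated together (r 0.361 to 0.811 over 15 pairs, 212 arms). The untreated pair was kept as labelled. The labels do not say which mice gave each library, so p-values measure the spread between these libraries. Named were both members, each start with at least 1% of a member, arms sharing bases 2 to 7 with a main start of miR-101a, and the 3 arms most like each member. Members and lists were chosen with earlier results of these data known. Sequences are RefSeq entries (GRCm38.p6) or deposited tags, and all 7 RefSeq entries of the Mir101 genes were found.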

Additional observations from a re-analysis of the deposited data

Results flagged for a closer look

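The upstream share of miR-101a in 6h-2, 44.6%, stood apart from the other 5 libraries of the second time course (62.5% to 68.5%) by Dixon's criterion, and 6h-2 had the fewest miRNA counts of that time course (1321363). The log2 ratio of miR-101a to miR-101b in 3h-1, 2.60, stood apart from the other 5 libraries of the first time course (1.78 to 2.05) by the same criterion. Of 14 groups examined 2 held such a library, where chance gives about 1 in 20.

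The level after ECS over the untreated library of the same time course had opposite signs in the time courses. As percent of miRNA counts, miR-101a averaged 0.71 on the log2 scale in the first and -1.23 in the second, and miR-101b 0.67 and -0.74, with all 5 libraries of a time course on the same side. These values use the untreated libraries as labelled, and the difference was not tested.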

How the results depend on the processing

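Of 159 values recomputed under other settings, 139 kept their direction and their side of the threshold. No setting exchanged the untreated libraries. The lower level of miR-101a in the second time course was called under all 7 settings tried, but in only 7 of 12 fits that left out a library (log2 fold changes of -2.02 to -1.14, calls lost as given above). Its downstream start was called in all 12 such fits. With total miRNA counts in place of TMM the upstream start of miR-101a (-1.51) and the downstream start of miR-101b (-1.17) became called, the upstream start of miR-101b turned to -0.12, and after ECS miR-101a at 1 h turned to 0.092 and miR-101b at 3 h to -0.29.

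No other change of sign concerned a call. With the time course as a replicate block miR-101a turned to -0.55 at 0.5 h, -0.026 at 24 h and -0.063 for the mean after ECS, miR-101b at 1 h to -0.027, and for the mean the upstream and downstream starts of miR-101a to -0.20 and -0.18 and the upstream start of miR-101b to 0.0030. The replicate block changed no call. DESeq2 with the replicate block, chosen after seeing the data, gave -0.71, -0.19 and -0.11 for miR-101a at 0.5 h, 24 h and the mean, and -0.10 for miR-101b at 0.5 h. With no count filter miR-101a at 0.5 h was -0.079, miR-101b at 0.5 h -0.16 and at 1 h -0.018, and 6 arms were called for the mean after ECS, none a member. With tags of at least 20 nt the upstream share of miR-101a was 10.6 points higher after ECS. The windows of ends from position 18 and 20 and of ends at position 20 only were also chosen after seeing the data.

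Leaving out each library, log2 fold changes of miR-101a ran from -2.78 to 1.21 at 0.5 h, -0.39 to 0.23 at 1 h, -0.58 to 1.33 at 3 h, -0.19 to 0.89 at 6 h, -1.33 to 1.10 at 24 h and -0.21 to 0.58 for the mean. Those of miR-101b ran from -0.85 to 0.76 at 0.5 h, -0.085 to 0.25 at 1 h, -0.18 to 0.32 at 3 h, -0.42 to 0.77 at 24 h, 0.060 to 0.69 at 6 h and 0.0029 to 0.38 for the mean, and between time courses from -0.80 to -0.22. For the mean after ECS, the starts of miR-101a ran from -0.52 to 0.44 (upstream) and -0.055 to 0.87 (downstream), the upstream start of miR-101b from -0.75 to 1.04, and between time courses from -0.12 to 1.09, where the upstream start of miR-101a ran from -1.45 to -0.45. Differences after ECS ran from -14.2 to 8.34 points (upstream share of miR-101a), -11.2 to 7.44 points (miR-101b), -0.215 to 1.10 nt and -0.266 to 1.25 nt (mean lengths) and -0.59 to 0.14 (log2 ratio). The cause of these changes was not tested. With 2 libraries per group, an SE near 1 on the log2 scale leaves changes of a few fold after ECS undetectable. That SE comes from the fit without the time course. With the replicate block the SE for the mean after ECS was 0.68 for miR-101a and 0.60 for miR-101b, and neither was called. Without a library the exact test between time courses cannot pass 0.05.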
